A study of Rattus norvegicus with 16 samples.

Results

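The genes described here are 32 genes that mark or serve macrophages and monocytes, among them the chains of complement C1q, in 16 microarray profiles of the rat right ventricle. They were chosen by name, with earlier results of these data known, and then grouped by role. Of the 32, 31 were measured among the 17245 genes of the array that had a probe set of their own. Lyz2, the lysozyme gene of myeloid cells, was left out because its probe set is shared with Lyc2. The series concerns right ventricular failure in rats with a banded pulmonary artery, an operation that narrows the outflow of the right ventricle and so raises its pressure load. The profiles came from right ventricular wall of male Wistar rats weighing 160 to 180 g, and formed the groups RVF+ (5 arrays, numbered 8 to 12), RVF (4 arrays, 13 to 16) and CON (7 arrays, 1 to 7). The labels name sham and banding operations for the study but do not spell out the group names, and they do not say which operation a given sample had or whether every sample was a separate animal. The p-values therefore measure the spread between these arrays, whatever its source.

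Macrophages of the heart include long-lived resident cells, which are typically recognised by Lyve1, Folr2, Mrc1 and Cd163, and cells that derive from circulating monocytes, which enter the muscle under stress and often carry more Lgals3, Trem2 or Cd14. Both depend on the growth factor Csf1 and its receptor Csf1r, and on PU.1, the transcription factor encoded by Spi1. Macrophages are also the main source of C1q, the recognition protein that starts the classical complement pathway and tags dying cells and debris for uptake. Many of their receptors signal through the small adaptors encoded by Tyrobp and Fcer1g.

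All values are log2 intensities of the deposited, normalised arrays, on which a difference of 1 is a 2-fold change in intensity. A gene was called when limma's moderated test over all 16 arrays gave a two-sided p under 0.05 after Benjamini-Hochberg adjustment over the 17245 genes. RVF+ 8 stood apart from the other arrays. It held the highest value of the 16 arrays for 27 of the 31 measured genes, and for the other 4, C1qb, C1qc, Lyve1 and Cd163, the highest value was in RVF+ 10. How many of all genes were highest in RVF+ 8 was not counted, so this is not shown to be particular to these genes. The median of the 31 genes over the CON mean was 2.27 in RVF+ 8, against 0.63 to 1.05 in RVF+ 9 to 12. In the same array the 9 measured proliferation genes had a median of 3.37 over the CON mean and the 10 cardiomyocyte markers a median of -0.78, and the part of these shifts in its macrophage values was not tested. Because the groups share 1 estimate of the spread per gene, RVF+ 8 also widens the errors of the RVF values, so values and counts without it are given as well wherever leaving it out changed them appreciably. All arrays had high levels of the cardiomyocyte markers, whose summed intensity was 22415 to 35274 in RVF+, 33679 to 36437 in RVF and 36371 to 38213 in CON. These levels show heart muscle but not which chamber it came from.

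**Figure D1:**
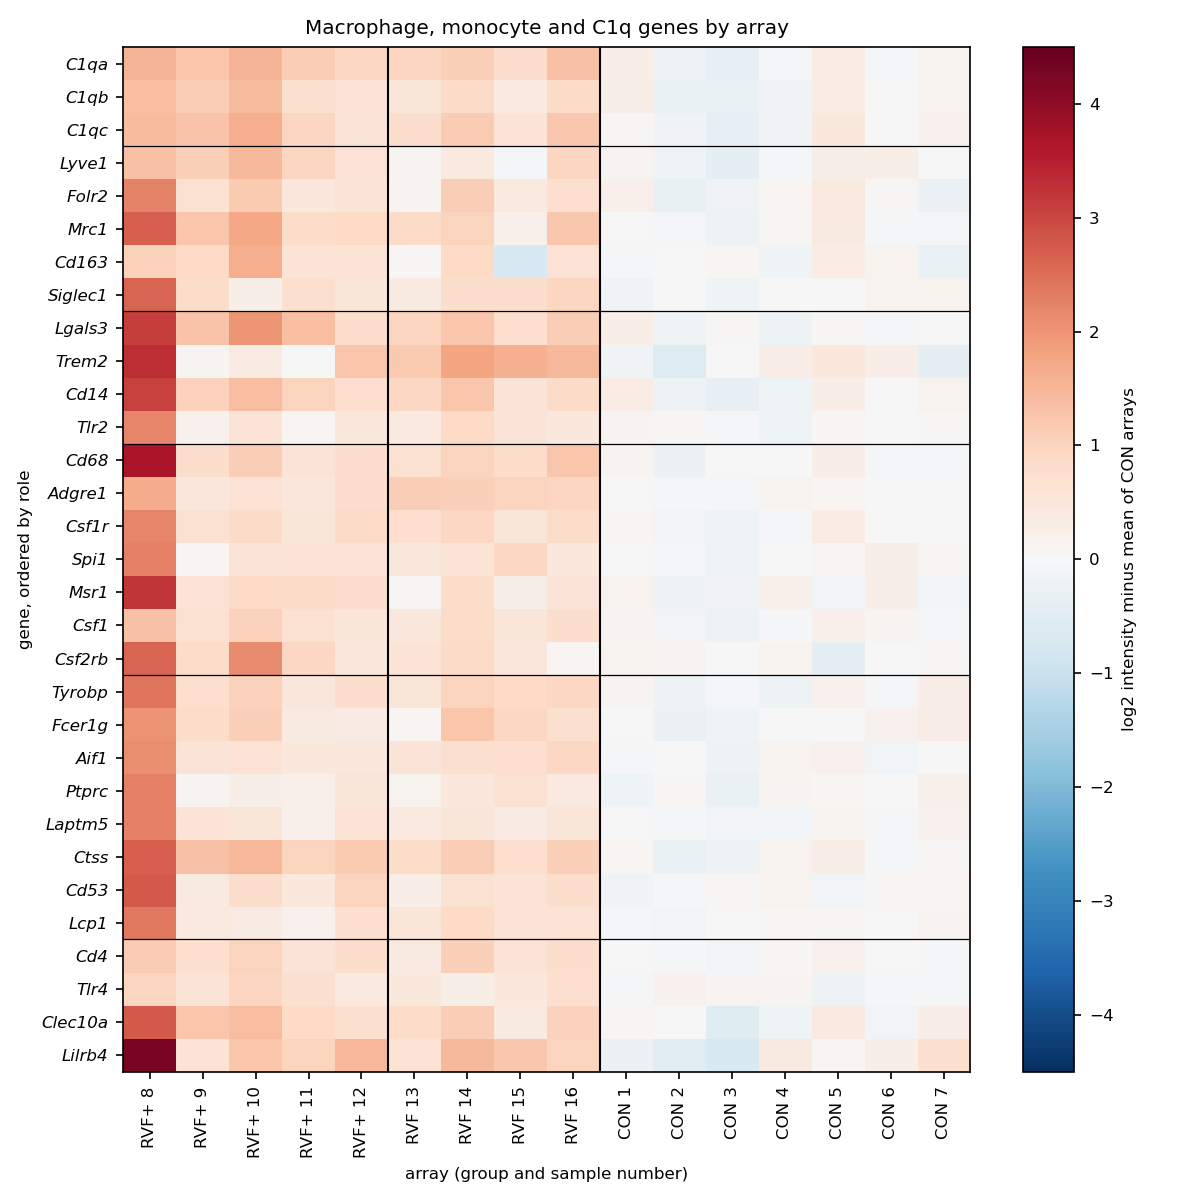
Log2 intensity of the 31 measured genes (rows, ordered by role) in each array (columns, RVF+ then RVF then CON), shown as the difference from the mean of the 7 CON arrays. RVF+ 8 is the darkest column for most genes, with a median of 2.27 over the 31 genes, while its C1q chains, Lyve1 and Cd163 resemble those of RVF+ 10.

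Macrophage genes were higher in RVF+ hearts than in CON, and 15 of them were higher in RVF hearts than in CON. In RVF+ hearts 29 of 31 genes rose and 0 fell, where 14.1% of all 17245 genes were called higher and 13.6% lower. Their median difference was 1.04, against -0.012 over all genes, and all 31 had a positive difference. Without RVF+ 8 the same 29 genes passed the test, with a median of 0.78, where 12.9% of all genes were called higher. Trem2 and Ptprc did not pass the threshold with or without that array. Every RVF+ array lay above every CON array for 26 of the 31 genes, a pattern shown by 6.96% of all genes.

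In RVF hearts 15 of 31 genes rose and 0 fell, where 8.86% of all genes were called higher and 8.29% lower. The median difference was 0.74, against -0.0087 over all genes, and again all 31 differences were positive. The genes that passed were C1qa, C1qb, C1qc, Mrc1, Lgals3, Trem2, Adgre1, Csf1r, Csf1, Tyrobp, Aif1, Ctss, Cd4, Tlr4 and Clec10a. Without RVF+ 8, which leaves the RVF and CON values as they are and changes only the estimate of the spread, 28 genes passed, where 13.4% of all genes were called higher. Without RVF 14 or without RVF 16 only 8 passed, and both left out Mrc1, Lgals3, Trem2, Csf1r, Tyrobp, Aif1 and Clec10a. The calls of Mrc1, Lgals3, Csf1r and Clec10a were also lost without RVF 13, and those of Trem2, Tyrobp and Aif1 without RVF 15. That of Trem2 was also lost without CON 2 and that of Aif1 without CON 3. The differences themselves changed little. Without RVF 13 they were 0.81 for Mrc1, 1.03 for Lgals3, 0.76 for Csf1r and 0.86 for Clec10a. Without RVF 15 they were 1.46 for Trem2, 0.83 for Tyrobp and 0.74 for Aif1. Every RVF array lay above every CON array for 21 of the 31 genes, against 9.83% of all genes. The RVF+ and RVF comparisons share the 7 CON arrays, so their likeness is no independent evidence. In RNA from whole tissue, more macrophages and more RNA of these genes per cell cannot be told apart.

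**Figure D2:**
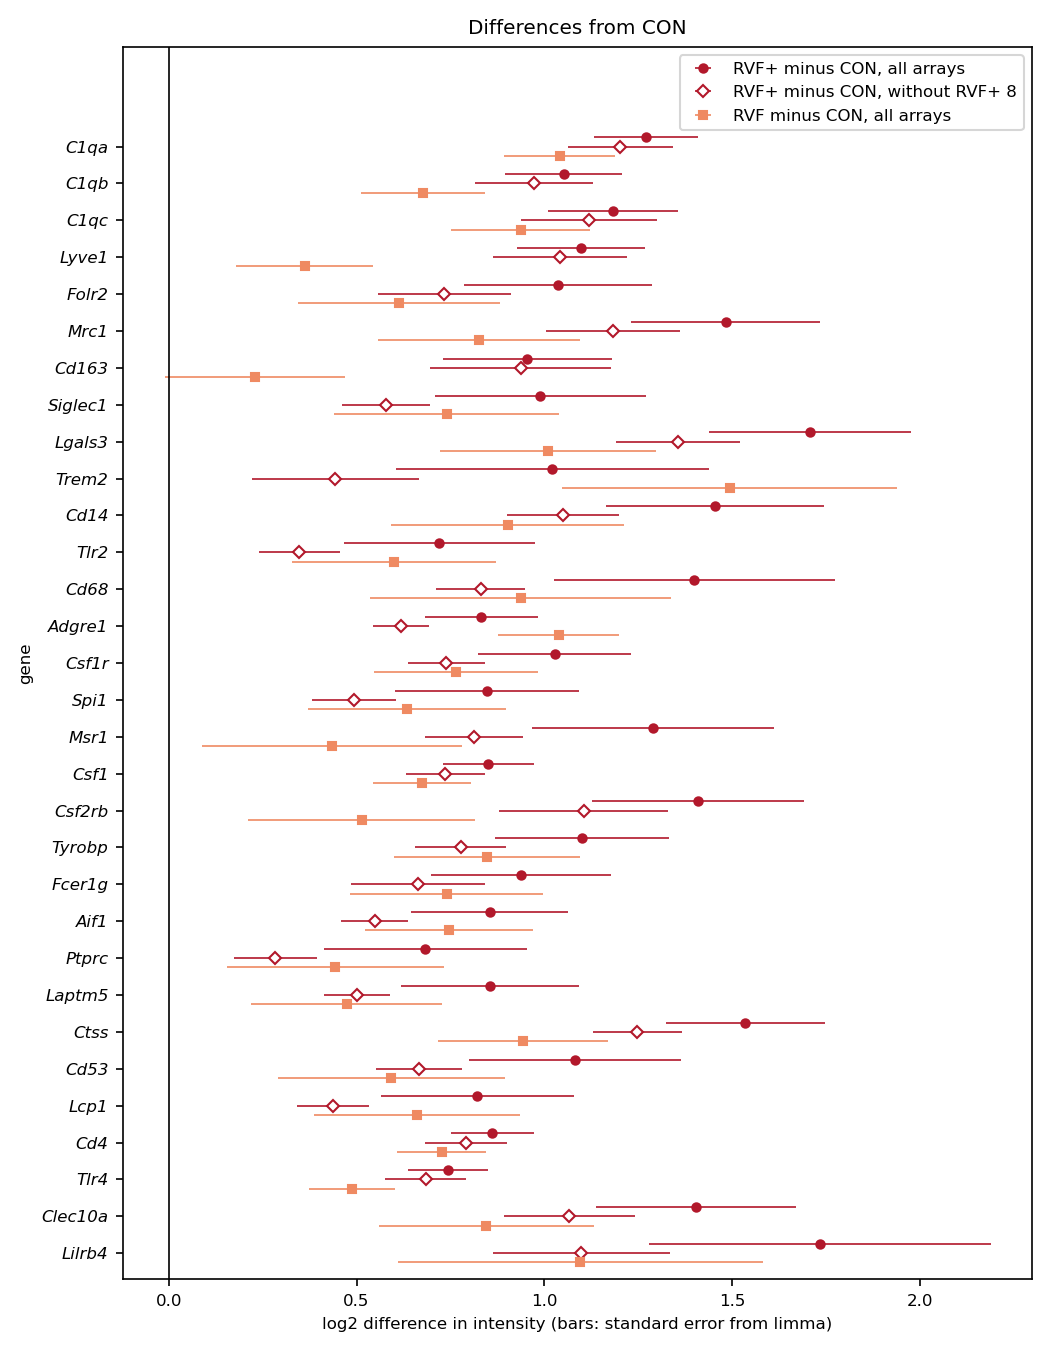
Log2 difference from CON with limma's standard error for each gene, as RVF+ minus CON over all arrays (filled circles), RVF+ minus CON without RVF+ 8 (open diamonds) and RVF minus CON (squares). All points lie right of 0, and RVF+ 8 moves Cd68, Trem2 and Lilrb4 far more than C1qa, Lyve1 or Cd163.

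The 3 chains of C1q rose in both groups, and their increase depended little on RVF+ 8. C1qa, C1qb and C1qc encode the chains that assemble together into the C1q molecule, and the RefSeq gene table places them side by side on chromosome 5. C1qa had 8.75, 8.46, 8.72, 8.30 and 8.15 in RVF+ 8 to 12 and 8.19, 8.27, 7.99 and 8.53 in RVF 13 to 16, against a lowest, median and highest value of 6.83, 7.12 and 7.52 in CON. Every RVF+ and RVF array lay above every CON array, and the RVF+ and RVF arrays overlapped. The difference from CON was 1.27 ± 0.14 (SE) in RVF+ hearts (2.41-fold, adjusted p = 5.28e-06) and 1.04 ± 0.15 in RVF hearts (2.06-fold, adjusted p = 9.36e-05). C1qb gave 8.76, 8.50, 8.82, 8.10 and 8.03 in RVF+ 8 to 12 and 7.92, 8.26, 7.82 and 8.26 in RVF 13 to 16, against a lowest, median and highest value of 7.07, 7.42 and 7.71 in CON. C1qc gave 8.42, 8.26, 8.63, 7.95 and 7.58 in RVF+ 8 to 12 and 7.77, 8.14, 7.59 and 8.18 in RVF 13 to 16, against a lowest, median and highest value of 6.60, 6.99 and 7.47 in CON. Both chains separated RVF+ and RVF from CON without overlap, and in both RVF+ 10, not RVF+ 8, was the highest array. In RVF+ hearts C1qb rose by 1.05 ± 0.16 (2.07-fold, adjusted p = 8.95e-05) and C1qc by 1.18 ± 0.17 (2.27-fold, adjusted p = 8.33e-05). In RVF hearts the increases were 0.68 ± 0.17 for C1qb (adjusted p = 0.00901) and 0.94 ± 0.19 for C1qc (adjusted p = 0.00186). Leaving out RVF+ 8 gave 1.20 ± 0.14 for C1qa, 0.97 ± 0.16 for C1qb and 1.12 ± 0.18 for C1qc in RVF+ hearts.

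The promoters of C1qa and C1qb are shown here because these neighbouring genes moved together. Each window runs from 250 bases before to 50 bases after the RefSeq gene start on assembly GRCr8 and is written along the gene's strand. Capitals mark GAGGAA, the core of the site bound by PU.1, or its reverse complement TTCCTC.
C1qa, chr5:154419884-154420183, minus strand: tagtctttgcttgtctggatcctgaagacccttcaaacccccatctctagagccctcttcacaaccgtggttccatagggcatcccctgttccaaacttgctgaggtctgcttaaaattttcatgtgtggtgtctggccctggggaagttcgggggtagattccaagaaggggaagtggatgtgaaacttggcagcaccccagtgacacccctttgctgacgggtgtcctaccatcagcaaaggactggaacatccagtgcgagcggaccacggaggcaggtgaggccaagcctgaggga
C1qb, chr5:154407778-154408077, minus strand: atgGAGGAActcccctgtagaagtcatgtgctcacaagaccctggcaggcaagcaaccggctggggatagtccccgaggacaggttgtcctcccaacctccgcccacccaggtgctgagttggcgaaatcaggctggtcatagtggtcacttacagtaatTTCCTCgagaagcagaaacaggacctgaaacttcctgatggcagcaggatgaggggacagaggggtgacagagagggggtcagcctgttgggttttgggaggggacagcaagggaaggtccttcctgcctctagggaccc
The C1qb window holds the motif at 2 places and the C1qa window holds none. Of the 32 genes, 19 had a window in the RefSeq table, and 14 of these 19 held the motif on either strand, where 27.6% of all 33469 windows of this length did. The 5 without it were C1qa, Cd163, Folr2, Lyve1 and Tlr2. The AP-1 site TGAGTCA, or its reverse complement TGACTCA, was in 1 of the 19 windows, that of Cd68, against 4.63% of all windows. These are matches of letters within short windows, not measured binding.

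Markers of resident macrophages rose in RVF+ hearts, while most did not pass the test in RVF hearts. All 5 resident markers passed in RVF+ hearts, with a median difference of 1.04, or 0.94 without RVF+ 8. In RVF hearts 1 of 5, Mrc1, passed and the median was 0.61, and 3 of 5 passed when RVF+ 8 was left out. Among all genes, 14.1% were called higher in RVF+ and 8.86% in RVF hearts, or 12.9% and 13.4% without RVF+ 8. A single call in so short a list is no result about the list. Lyve1, a receptor for the matrix polysaccharide hyaluronan that is also carried by lymphatic endothelium, had 9.77, 9.51, 9.91, 9.40 and 9.10 in RVF+ 8 to 12 and 8.55, 8.86, 8.39 and 9.39 in RVF 13 to 16, against a lowest, median and highest value of 8.03, 8.44 and 8.71 in CON. All RVF+ arrays lay above CON, whereas 2 of the 4 RVF arrays fell within the CON range. The RVF+ increase was 1.10 ± 0.17 (2.14-fold, adjusted p = 1.39e-04), and the RVF difference was 0.36 ± 0.18 (adjusted p = 0.197). Cd163, the scavenger receptor for haemoglobin bound to haptoglobin, showed a similar arrangement, with 7.86, 7.74, 8.45, 7.44 and 7.45 in RVF+ 8 to 12 and 6.90, 7.73, 6.15 and 7.47 in RVF 13 to 16, against a lowest, median and highest value of 6.54, 6.84 and 7.17 in CON. RVF 15 lay below all CON arrays for Cd163, RVF 13 lay among them, and the other 2 RVF arrays lay above them. Its difference was 0.95 ± 0.22 in RVF+ hearts (1.94-fold, adjusted p = 0.00397) and 0.23 ± 0.24 in RVF hearts (adjusted p = 0.574). These were also the genes that RVF+ 8 moved least, with 1.04 ± 0.18 for Lyve1 and 0.94 ± 0.24 for Cd163 in RVF+ hearts without it.

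Mrc1, the macrophage mannose receptor, rose in both groups. It had 9.93, 8.49, 8.98, 8.08 and 8.14 in RVF+ 8 to 12 and 8.11, 8.26, 7.46 and 8.44 in RVF 13 to 16, against a lowest, median and highest value of 7.02, 7.20 and 7.63 in CON. RVF 15 fell within the CON range, and all other RVF+ and RVF arrays lay above it. The difference was 1.48 ± 0.25 in RVF+ hearts (2.80-fold, adjusted p = 3.07e-04), or 1.18 ± 0.18 without RVF+ 8, and 0.83 ± 0.27 in RVF hearts (adjusted p = 0.0423). The RVF call of Mrc1 was also lost without any CON array other than CON 5. Folr2, the folate receptor of tissue macrophages, ranged from 8.53 to 10.28 in RVF+, from 8.17 to 9.16 in RVF and from 7.70 to 8.47 in CON. Only RVF 13 among the RVF+ and RVF arrays fell within the CON range of Folr2. Folr2 rose by 1.04 ± 0.25 in RVF+ hearts (adjusted p = 0.00492), or 0.73 ± 0.18 without RVF+ 8, and its RVF difference was 0.61 ± 0.27 (adjusted p = 0.134). Siglec1, a sialic acid-binding adhesion receptor, had 7.69, 5.86, 5.31, 5.76 and 5.61 in RVF+ 8 to 12 and 5.46, 5.84, 5.85 and 6.03 in RVF 13 to 16, against a lowest, median and highest value of 4.85, 5.06 and 5.23 in CON. RVF+ 8 lay far above the rest, and every RVF+ and RVF array lay above CON. Siglec1 rose by 0.99 ± 0.28 in RVF+ hearts (adjusted p = 0.0133), or 0.58 ± 0.12 without RVF+ 8, and its RVF difference was 0.74 ± 0.30 (adjusted p = 0.102). Without RVF+ 8 the RVF differences of Folr2 and Siglec1 passed the threshold, while those of Lyve1 and Cd163 did not.

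The promoter windows of Lyve1 and Mrc1 are printed as a pair of resident markers. Capitals again mark GAGGAA or TTCCTC.
Lyve1, chr1:174410928-174411227, minus strand: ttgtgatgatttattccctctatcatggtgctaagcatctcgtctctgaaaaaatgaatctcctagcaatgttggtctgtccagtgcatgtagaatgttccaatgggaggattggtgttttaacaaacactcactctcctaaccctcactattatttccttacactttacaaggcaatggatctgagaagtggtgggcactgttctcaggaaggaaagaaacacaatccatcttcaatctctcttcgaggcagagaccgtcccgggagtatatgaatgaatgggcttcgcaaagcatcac
Mrc1, chr17:82157475-82157774, plus strand: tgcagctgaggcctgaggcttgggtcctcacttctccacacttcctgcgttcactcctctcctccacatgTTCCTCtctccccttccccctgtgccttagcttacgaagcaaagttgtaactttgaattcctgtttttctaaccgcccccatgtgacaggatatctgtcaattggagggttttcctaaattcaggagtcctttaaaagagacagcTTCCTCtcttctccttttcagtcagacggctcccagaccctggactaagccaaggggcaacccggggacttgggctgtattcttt
The Mrc1 window holds the motif at 2 places and the Lyve1 window holds none. A link between the motif and the calls was not tested.

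**Figure D3:**
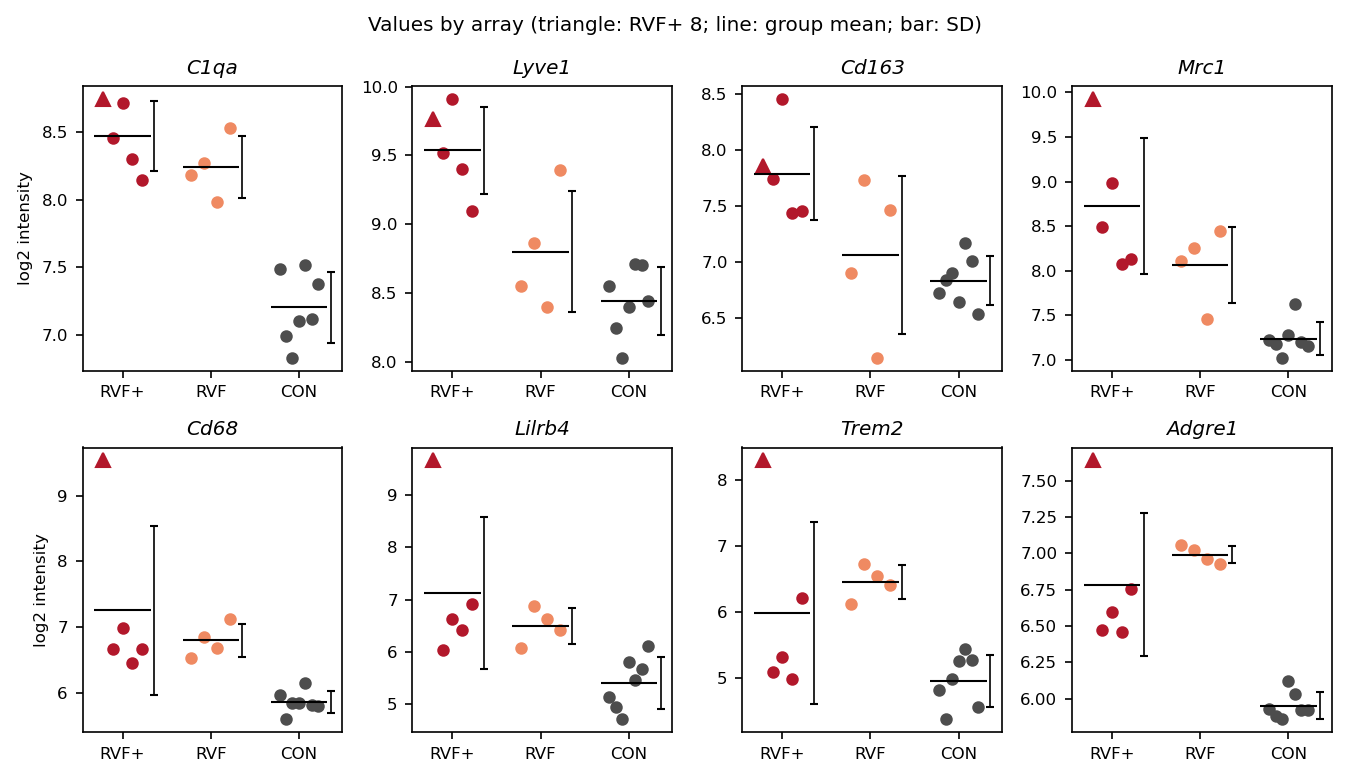
Log2 intensity of 8 genes in every array of RVF+, RVF and CON, with the group mean as a line, the SD as a bar and RVF+ 8 as a triangle. RVF+ 8 lies close to the other RVF+ arrays for C1qa, Lyve1 and Cd163 and far above them for Cd68, Lilrb4 and Trem2, and the RVF arrays lie above RVF+ 9 to 12 for Adgre1.

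Among the markers of recruited or activated macrophages, 3 of the 4 measured rose in RVF+ hearts and 2 of 4 in RVF hearts. Their median difference in RVF+ hearts was 1.24 with RVF+ 8 and 0.75 without it, and in RVF hearts it was 0.96. Without RVF+ 8 all 4 passed in RVF hearts and 3 of 4 in RVF+ hearts. The shares of all genes called higher were 14.1% in RVF+ and 8.86% in RVF hearts, or 12.9% and 13.4% without RVF+ 8. Lgals3, which encodes the carbohydrate-binding protein galectin-3, had 10.41, 8.58, 9.29, 8.66 and 8.07 in RVF+ 8 to 12 and 8.25, 8.53, 8.05 and 8.39 in RVF 13 to 16, against a lowest, median and highest value of 7.07, 7.33 and 7.61 in CON. All RVF+ and RVF arrays lay above CON. Lgals3 rose by 1.71 ± 0.27 in RVF+ hearts (3.27-fold, adjusted p = 1.56e-04), or 1.36 ± 0.17 without RVF+ 8, and by 1.01 ± 0.29 in RVF hearts (2.01-fold, adjusted p = 0.0214).

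Trem2, a receptor for lipids and cell debris, rose in RVF hearts and did not pass the test in RVF+ hearts. It had 8.29, 5.09, 5.31, 4.98 and 6.21 in RVF+ 8 to 12 and 6.12, 6.72, 6.55 and 6.41 in RVF 13 to 16, against a lowest, median and highest value of 4.37, 4.98 and 5.44 in CON. The 4 RVF arrays lay close together above all CON arrays, whereas RVF+ 9, 10 and 11 fell within the CON range and only RVF+ 8 and RVF+ 12 exceeded it. The RVF increase was 1.49 ± 0.45 (2.82-fold, adjusted p = 0.0279), and the RVF+ difference was 1.02 ± 0.42 (adjusted p = 0.0786), or 0.44 ± 0.22 without RVF+ 8. Without RVF+ 9 or without RVF+ 11 the RVF+ difference passed the threshold.

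Cd14, the co-receptor for bacterial lipopolysaccharide, ranged from 7.15 to 9.46 in RVF+, from 6.98 to 7.62 in RVF and from 6.03 to 6.73 in CON. Neither RVF+ nor RVF overlapped with CON. Cd14 rose by 1.45 ± 0.29 in RVF+ hearts (2.74-fold, adjusted p = 0.00114), or 1.05 ± 0.15 without RVF+ 8, and its RVF difference was 0.90 ± 0.31 (adjusted p = 0.0535). Tlr2, the receptor for bacterial lipoproteins, was a dim gene, with 6.13, 4.11, 4.55, 4.00 and 4.42 in RVF+ 8 to 12 and 4.36, 4.81, 4.51 and 4.40 in RVF 13 to 16, against a lowest, median and highest value of 3.75, 3.96 and 4.03 in CON. RVF+ 11 fell within the CON range, and RVF+ 8 lay far above all other arrays. The RVF+ increase was 0.72 ± 0.25 (adjusted p = 0.0426), or 0.35 ± 0.11 without RVF+ 8. The call was lost without any 1 of the CON arrays and without RVF+ 10, RVF 13, RVF 15 or RVF 16. It was also lost in a fit to only the 2 groups compared, with a trended and robust prior, and with array weights, under which the increase was 0.38. The RVF difference of Tlr2 was 0.60 ± 0.27 (adjusted p = 0.148). The probe set that Lyz2 shares with Lyc2 was higher by 1.41 in RVF+ hearts and by 1.12 in RVF hearts than in CON, as a value with no test, and it cannot be assigned to either gene.

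Genes of general macrophage identity and of the Csf1 axis all passed in RVF+ hearts, 7 of 7, with a median difference of 1.03, or 0.74 without RVF+ 8. In RVF hearts 3 of 7 rose, namely Adgre1, Csf1r and Csf1, with a median of 0.67, and 6 of 7 passed without RVF+ 8. The shares of all genes called higher were 14.1% in RVF+ and 8.86% in RVF hearts, or 12.9% and 13.4% without RVF+ 8. Csf1r, the receptor that keeps macrophages alive, had 10.07, 8.59, 8.74, 8.44 and 8.74 in RVF+ 8 to 12 and 8.66, 8.83, 8.43 and 8.70 in RVF 13 to 16, against a lowest, median and highest value of 7.70, 7.86 and 8.24 in CON. All RVF+ and RVF arrays lay above CON, and apart from RVF+ 8 the RVF+ and RVF values overlapped closely. Csf1r rose by 1.03 ± 0.20 in RVF+ hearts (2.04-fold, adjusted p = 0.00112), or 0.74 ± 0.10 without RVF+ 8, and by 0.77 ± 0.22 in RVF hearts (adjusted p = 0.0219). Its ligand Csf1 had 8.67, 8.05, 8.39, 8.06 and 7.89 in RVF+ 8 to 12 and 7.89, 8.19, 7.92 and 8.15 in RVF 13 to 16, against a lowest, median and highest value of 7.14, 7.32 and 7.59 in CON. Here too neither group overlapped with CON. Csf1 rose by 0.85 ± 0.12 in RVF+ hearts (1.80-fold, adjusted p = 6.41e-05), or 0.74 ± 0.11 without RVF+ 8, and by 0.67 ± 0.13 in RVF hearts (1.59-fold, adjusted p = 0.00151). Il34, the other ligand of Csf1r, rose by 0.37 ± 0.12 in RVF+ hearts (adjusted p = 0.0245), and its RVF difference was 0.28 ± 0.13 (adjusted p = 0.151).

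Adgre1, an adhesion receptor widely used to mark rodent macrophages, had 7.64, 6.47, 6.59, 6.46 and 6.75 in RVF+ 8 to 12 and 7.05, 7.02, 6.96 and 6.93 in RVF 13 to 16, against a lowest, median and highest value of 5.86, 5.92 and 6.12 in CON. The RVF arrays lay within a narrow span above RVF+ 9 to 12, and RVF+ 8 lay above them all. Adgre1 rose by 0.83 ± 0.15 in RVF+ hearts (adjusted p = 5.30e-04), or 0.62 ± 0.074 without RVF+ 8, and by 1.04 ± 0.16 in RVF hearts (adjusted p = 2.31e-04). Cd68, a glycoprotein of macrophage lysosomes, was among the genes most raised in RVF+ 8, with 9.54, 6.66, 6.98, 6.46 and 6.66 in RVF+ 8 to 12 and 6.53, 6.85, 6.69 and 7.12 in RVF 13 to 16, against a lowest, median and highest value of 5.59, 5.84 and 6.15 in CON. No RVF+ or RVF array overlapped with CON. The RVF+ increase was 1.40 ± 0.37 (2.64-fold, adjusted p = 0.00927), and 0.83 ± 0.12 without RVF+ 8. The RVF difference of 0.94 ± 0.40 did not pass (adjusted p = 0.122), but without RVF+ 8 its standard error was 0.12 and it passed.

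Spi1, which encodes PU.1, had 7.57, 5.41, 5.87, 5.93 and 5.97 in RVF+ 8 to 12 and 5.82, 5.91, 6.22 and 5.79 in RVF 13 to 16, against a lowest, median and highest value of 5.11, 5.29 and 5.55 in CON. RVF+ 9 fell within the CON range and all other RVF+ and RVF arrays lay above it. Spi1 rose by 0.85 ± 0.25 in RVF+ hearts (adjusted p = 0.0153), or 0.49 ± 0.11 without RVF+ 8, and its RVF difference was 0.63 ± 0.26 (adjusted p = 0.11). Msr1, a scavenger receptor for modified lipoproteins, had 8.48, 5.95, 6.19, 6.16 and 6.09 in RVF+ 8 to 12 and 5.34, 6.10, 5.56 and 5.87 in RVF 13 to 16, against a lowest, median and highest value of 5.04, 5.16 and 5.53 in CON. RVF 13 fell within the CON range, and RVF+ 8 stood more than 2 log2 units above every other array. The RVF+ increase was 1.29 ± 0.32 (adjusted p = 0.00605), or 0.81 ± 0.13 without RVF+ 8, and the RVF difference was 0.43 ± 0.35 (adjusted p = 0.443). Csf2rb, the shared signalling chain of the receptors for granulocyte-macrophage colony-stimulating factor and related cytokines, had 8.51, 6.73, 8.03, 6.84 and 6.39 in RVF+ 8 to 12 and 6.49, 6.75, 6.40 and 5.97 in RVF 13 to 16, against a lowest, median and highest value of 5.45, 5.96 and 6.04 in CON. Both RVF+ 8 and RVF+ 10 were high, and RVF 16 fell within the CON range. Csf2rb rose by 1.41 ± 0.28 in RVF+ hearts (2.65-fold, adjusted p = 0.00121), or 1.11 ± 0.23 without RVF+ 8, and its RVF difference was 0.51 ± 0.30 (adjusted p = 0.277).

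The Csf1r and Cd68 promoter windows are shown as those of the growth factor receptor and of a lysosomal gene that RVF+ 8 moved strongly, with GAGGAA or TTCCTC in capitals.
Csf1r, chr18:56834129-56834428, plus strand: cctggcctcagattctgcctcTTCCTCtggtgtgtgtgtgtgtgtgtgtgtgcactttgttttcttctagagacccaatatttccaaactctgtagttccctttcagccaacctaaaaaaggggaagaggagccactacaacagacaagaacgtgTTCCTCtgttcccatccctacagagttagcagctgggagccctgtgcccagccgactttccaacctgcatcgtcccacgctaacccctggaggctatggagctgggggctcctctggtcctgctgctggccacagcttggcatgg
Cd68, chr10:54882392-54882691, minus strand: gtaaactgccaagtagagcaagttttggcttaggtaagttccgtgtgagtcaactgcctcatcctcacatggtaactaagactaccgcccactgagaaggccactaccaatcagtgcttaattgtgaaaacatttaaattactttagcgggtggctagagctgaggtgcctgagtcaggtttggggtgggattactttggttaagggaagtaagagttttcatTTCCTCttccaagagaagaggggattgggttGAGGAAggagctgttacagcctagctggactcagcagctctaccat
Each of these windows holds the motif at 2 places.

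Of the 8 myeloid adaptors and pan-leukocyte genes, 7 rose in RVF+ hearts and 3 in RVF hearts, with median differences of 0.90 in RVF+ and 0.70 in RVF. Without RVF+ 8 the median in RVF+ hearts was 0.61, again with 7 passing, and all 8 passed in RVF hearts. The shares of all genes called higher were 14.1% in RVF+ and 8.86% in RVF hearts, or 12.9% and 13.4% without RVF+ 8. Ctss, the lysosomal protease cathepsin S, had 10.27, 8.90, 9.07, 8.59 and 8.76 in RVF+ 8 to 12 and 8.42, 8.68, 8.33 and 8.67 in RVF 13 to 16, against a lowest, median and highest value of 7.28, 7.65 and 7.89 in CON. No RVF+ or RVF array overlapped with CON. Ctss rose by 1.54 ± 0.21 in RVF+ hearts (2.90-fold, adjusted p = 4.71e-05), or 1.25 ± 0.12 without RVF+ 8, and by 0.94 ± 0.23 in RVF hearts (1.92-fold, adjusted p = 0.0078). Tyrobp, the signalling adaptor of Trem2 and other receptors, had 10.59, 8.97, 9.25, 8.70 and 8.98 in RVF+ 8 to 12 and 8.76, 9.19, 9.10 and 9.13 in RVF 13 to 16, against a lowest, median and highest value of 7.97, 8.13 and 8.50 in CON. It too was above CON in every RVF+ and RVF array. Tyrobp rose by 1.10 ± 0.23 in RVF+ hearts (adjusted p = 0.00178), or 0.78 ± 0.12 without RVF+ 8, and by 0.85 ± 0.25 in RVF hearts (adjusted p = 0.0249). Fcer1g, the signalling chain of Fc receptors, ranged from 9.13 to 10.79 in RVF+, from 8.83 to 10.00 in RVF and from 8.50 to 9.05 in CON. RVF 13 was the array that fell within the CON range. The differences of Fcer1g were 0.94 ± 0.24 in RVF+ hearts (adjusted p = 0.0069), or 0.66 ± 0.18 without RVF+ 8, and 0.74 ± 0.26 in RVF hearts (adjusted p = 0.0557).

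Aif1, a calcium-binding protein of macrophages, had 7.42, 5.92, 5.98, 5.83 and 5.83 in RVF+ 8 to 12 and 5.90, 6.07, 6.10 and 6.28 in RVF 13 to 16, against a lowest, median and highest value of 5.12, 5.34 and 5.55 in CON. All RVF+ and RVF arrays lay above CON, and RVF+ 8 was the highest by a wide margin. Aif1 rose by 0.85 ± 0.21 in RVF+ hearts (adjusted p = 0.00519), or 0.55 ± 0.088 without RVF+ 8, and by 0.75 ± 0.22 in RVF hearts (adjusted p = 0.028). Ptprc, the phosphatase carried by all leukocytes, had 9.21, 7.06, 7.20, 7.16 and 7.47 in RVF+ 8 to 12 and 7.11, 7.42, 7.61 and 7.38 in RVF 13 to 16, against a lowest, median and highest value of 6.62, 6.99 and 7.15 in CON. RVF+ 9 and RVF 13 fell within the CON range, and RVF+ 8 lay far above every other array. Its differences were 0.68 ± 0.27 in RVF+ hearts (adjusted p = 0.0697), or 0.28 ± 0.11 without RVF+ 8, and 0.44 ± 0.29 in RVF hearts (adjusted p = 0.335). The RVF+ difference passed without RVF+ 9 or without RVF+ 11, and the RVF difference passed without RVF+ 8. A dimmer second probe set of Ptprc, with a mean of 4.71, differed by -0.054 in RVF+ and by 0.043 in RVF hearts.

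The remaining 3 pan-leukocyte genes were above CON in every RVF+ and RVF array. Laptm5, a lysosomal membrane protein of blood cells, ranged from 7.30 to 9.33 in RVF+, from 7.44 to 7.60 in RVF and from 6.92 to 7.26 in CON. Cd53, a tetraspanin of leukocytes, ranged from 7.94 to 10.28 in RVF+, from 7.82 to 8.32 in RVF and from 7.38 to 7.69 in CON. Lcp1, the actin-bundling protein L-plastin, ranged from 8.44 to 10.61 in RVF+, from 8.79 to 9.14 in RVF and from 8.14 to 8.37 in CON. In each of them the top of the RVF+ range was RVF+ 8. In RVF+ hearts Laptm5 rose by 0.85 ± 0.24 (adjusted p = 0.0117), Cd53 by 1.08 ± 0.28 (adjusted p = 0.00785) and Lcp1 by 0.82 ± 0.26 (adjusted p = 0.0231). Without RVF+ 8 these became 0.50 ± 0.088 for Laptm5, 0.67 ± 0.12 for Cd53 and 0.44 ± 0.095 for Lcp1. The RVF differences were 0.47 ± 0.25 for Laptm5, 0.59 ± 0.30 for Cd53 and 0.66 ± 0.27 for Lcp1, with adjusted p-values of 0.227, 0.202 and 0.111 in that order, and all 3 passed when RVF+ 8 was left out.

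The 4 other receptors all rose in RVF+ hearts, with a median of 1.13, or 0.93 without RVF+ 8, and 3 of 4 rose in RVF hearts, with a median of 0.79. The shares of all genes called higher were 14.1% in RVF+ and 8.86% in RVF hearts. Cd4, the co-receptor of helper T cells that rat macrophages also carry, had 9.21, 8.84, 9.07, 8.66 and 8.88 in RVF+ 8 to 12 and 8.47, 9.15, 8.69 and 8.87 in RVF 13 to 16, against a lowest, median and highest value of 7.95, 8.07 and 8.27 in CON. All RVF+ and RVF arrays lay above CON. Cd4 rose by 0.86 ± 0.11 in RVF+ hearts (1.82-fold, adjusted p = 2.50e-05) and by 0.73 ± 0.12 in RVF hearts (1.65-fold, adjusted p = 3.60e-04), and RVF+ 8 moved it little, to 0.79 ± 0.11 when left out. A second, dim probe set of Cd4, with a mean of 4.47, differed by 0.019 in RVF+ and by 0.094 in RVF hearts. Tlr4, the receptor for bacterial lipopolysaccharide, ranged from 7.04 to 7.57 in RVF+, from 6.87 to 7.34 in RVF and from 6.37 to 6.79 in CON. Neither group overlapped with CON. Tlr4 rose by 0.74 ± 0.11 in RVF+ hearts (adjusted p = 7.04e-05), or 0.68 ± 0.11 without RVF+ 8, and by 0.49 ± 0.11 in RVF hearts (adjusted p = 0.00677).

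Clec10a, a galactose-binding lectin of macrophages and dendritic cells, had 8.21, 6.69, 6.86, 6.36 and 6.17 in RVF+ 8 to 12 and 6.27, 6.57, 5.87 and 6.49 in RVF 13 to 16, against a lowest, median and highest value of 4.92, 5.49 and 5.88 in CON. RVF 15 lay just inside the top of the CON range, and all RVF+ arrays lay above it. Clec10a rose by 1.40 ± 0.27 in RVF+ hearts (2.65-fold, adjusted p = 7.75e-04), or 1.07 ± 0.17 without RVF+ 8. Its RVF increase of 0.85 ± 0.29 was at the edge of the threshold (adjusted p = 0.0497) and its call was lost under quantile normalization, median centring, averaging of probe sets and a trended prior. It was kept without CON 5, RVF+ 8, RVF+ 11, RVF+ 12 or RVF 15 and lost without any other single array. Lilrb4, an inhibitory receptor of myeloid cells, was the gene that RVF+ 8 moved most, with 9.67, 6.03, 6.63, 6.41 and 6.90 in RVF+ 8 to 12 and 6.06, 6.87, 6.63 and 6.41 in RVF 13 to 16, against a lowest, median and highest value of 4.69, 5.46 and 6.12 in CON. RVF+ 8 was 9.05-fold above the mean of the other RVF+ arrays, while RVF+ 9 and RVF 13 fell within the CON range. Lilrb4 rose by 1.73 ± 0.45 in RVF+ hearts (3.33-fold, adjusted p = 0.0082), or 1.10 ± 0.23 without RVF+ 8, and its RVF difference was 1.10 ± 0.49 (adjusted p = 0.139).

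The macrophage genes were raised unevenly in RVF+ 8. Relative to the mean of RVF+ 9 to 12, its intensity was 7.41-fold higher for Trem2, 7.20-fold for Cd68 and 5.23-fold for Msr1. It was 1.27-fold higher for C1qa, 1.31-fold for C1qb, 1.25-fold for C1qc, 1.22-fold for Lyve1 and 1.06-fold for Cd163. The C1q chains had a median of 1.44 over the CON mean in RVF+ 8 and 1.51 in RVF+ 10, so by these genes the array did not stand apart. The resident markers had a median of 2.25 in RVF+ 8, where Folr2, Mrc1 and Siglec1 were raised, and 0.62 to 1.47 in RVF+ 9 to 12. The recruited or activated markers had a median of 3.09 in RVF+ 8 and 0.53 to 1.01 in RVF+ 9 to 12. In RVF 13 to 16 the recruited markers lay between 0.67 and 1.24, and the resident markers between 0.13 and 0.95. RVF 13 and RVF 15 had resident medians of 0.13 and 0.22, and recruited medians of 0.95 and 0.67. The resident medians of the CON arrays were -0.21 to 0.34, and the recruited medians of CON were -0.22 to 0.21, so these 2 RVF arrays overlapped with CON by the resident median and not by the recruited median. The single resident markers were mixed. Mrc1 and Siglec1 in RVF 13, and Folr2 and Siglec1 in RVF 15, lay above every CON array, and the other resident markers of these arrays did not.

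**Figure D4:**
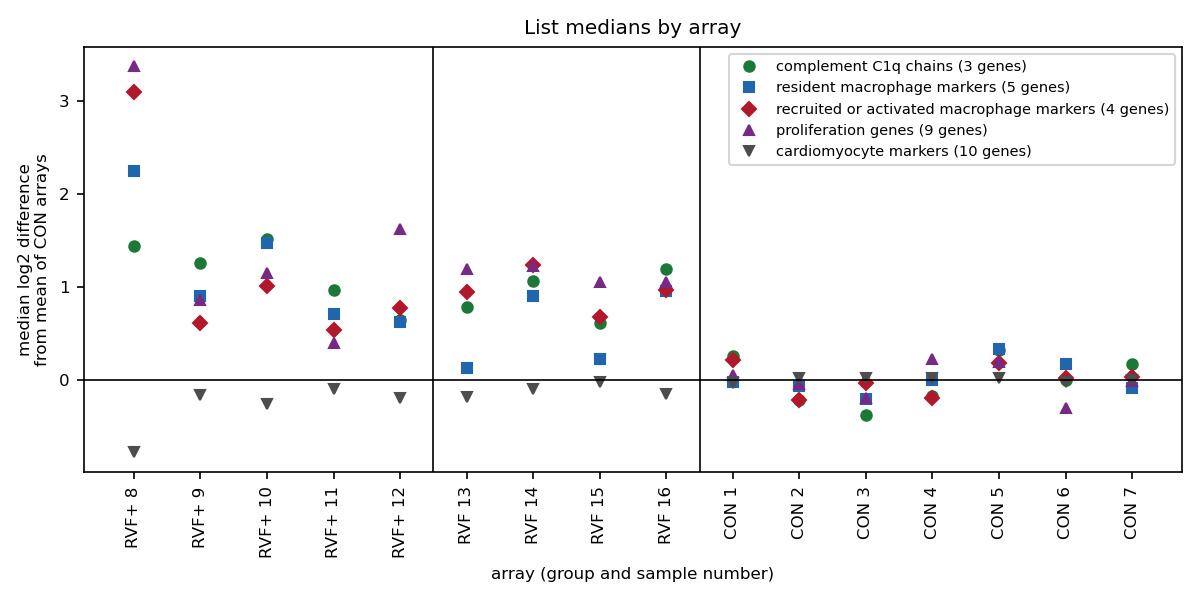
Median log2 difference from the CON mean in every array for the C1q chains (3 genes), the resident markers (5), the recruited or activated markers (4), proliferation genes (9) and cardiomyocyte markers (10). RVF+ 8 is at 3.09 for the recruited and 3.37 for the proliferation genes but at 1.44 for C1q, and RVF 13 and RVF 15 show recruited markers at 0.95 and 0.67 with resident markers at 0.13 and 0.22.

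Set directly against each other, RVF+ and RVF hearts did not differ for any of the 31 genes at the threshold, and 0% of all 17245 genes were called in this comparison by limma. At an unadjusted p under 0.05 there were 7 of the 31 genes and 1242 of all genes, or 7.20%. The median difference, RVF+ minus RVF, was 0.26 with 29 of 31 positive, and 0.065 with 19 of 31 positive when RVF+ 8 was left out. Lyve1 and Cd163 differed about as much with as without that array. For Lyve1 the difference was 0.74 (95% confidence interval 0.33 to 1.15, adjusted p = 0.403), and 0.68 without RVF+ 8 (interval 0.25 to 1.10). For Cd163 it was 0.73 (interval 0.18 to 1.27, adjusted p = 0.542), and 0.71 without RVF+ 8 (interval 0.13 to 1.28). RVF 16 overlapped with the RVF+ arrays for Lyve1, and RVF 14 and RVF 16 did for Cd163.

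Trem2 and Adgre1 pointed the other way. Their means were 5.98 ± 1.38 in RVF+ and 6.45 ± 0.25 in RVF for Trem2, and 6.78 ± 0.49 in RVF+ and 6.99 ± 0.057 in RVF for Adgre1 (SD). Over all arrays the difference of Trem2 was -0.47 (interval -1.48 to 0.53, adjusted p = 0.894) and that of Adgre1 was -0.21 (interval -0.57 to 0.16, adjusted p = 0.857). Without RVF+ 8 they were -1.05 for Trem2 (interval -1.58 to -0.52) and -0.42 for Adgre1 (interval -0.60 to -0.25), still short of the threshold. Of the cytokine and scavenger receptors, Csf2rb differed by 0.89 (interval 0.21 to 1.58, adjusted p = 0.556) and Msr1 by 0.86 (interval 0.076 to 1.63, adjusted p = 0.636). Without RVF+ 8 these values were 0.59 and 0.38 in that order. The C1q chains differed by 0.23 for C1qa (interval -0.10 to 0.56), 0.25 for C1qc (interval -0.17 to 0.66) and 0.37 for C1qb. The interval of C1qb ran up to 0.75 and just touched 0 (adjusted p = 0.692), and it was -0.08 to 0.67 without RVF+ 8. These intervals hold moderately higher values in RVF+ hearts but at most slightly lower ones. By list, the resident markers had a median difference of 0.66, or 0.36 without RVF+ 8, and the recruited or activated markers had 0.34, or -0.053 without RVF+ 8.

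**Figure D5:**
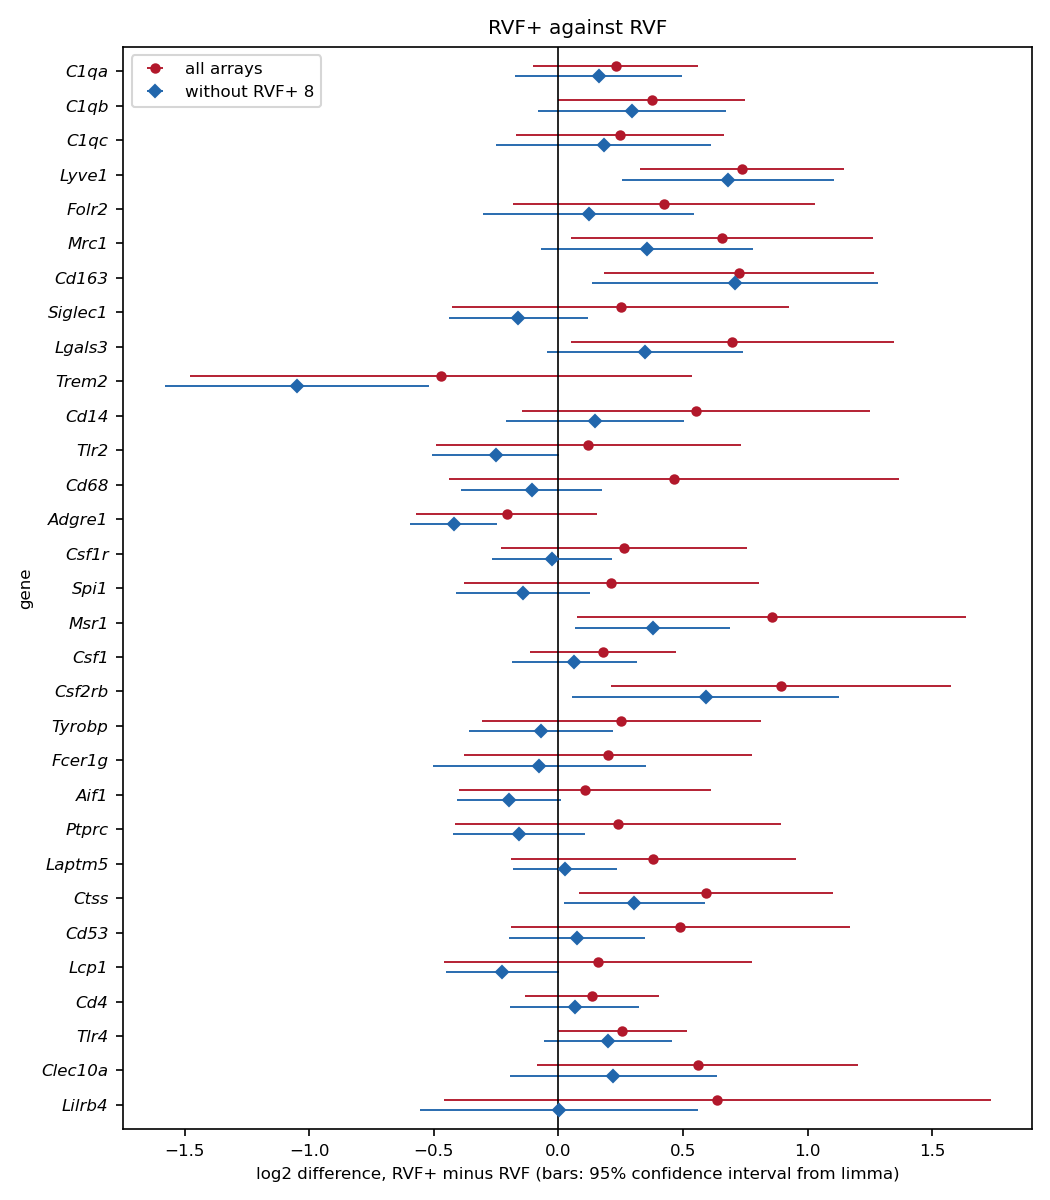
Log2 difference RVF+ minus RVF with its 95% confidence interval for each gene, over all arrays (circles) and without RVF+ 8 (diamonds). Lyve1 at 0.74 and Cd163 at 0.73 stay right of 0 in both, Trem2 moves to -1.05 and Adgre1 to -0.42 without RVF+ 8, and no gene passed the adjusted threshold.

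Other genes of the same kinds were counted as whole lists, here and in the next paragraphs. Of all genes, 14.1% were called higher and 13.6% lower in RVF+ hearts, and 8.86% higher and 8.29% lower in RVF hearts. Without RVF+ 8, 12.9% were called higher in RVF+ and 13.4% in RVF hearts. Of 5 measured further genes of resident macrophages, 3 rose in RVF+ hearts and 1 in RVF hearts, or 2 and 1 without RVF+ 8, and 0 fell. Ms4a7, a membrane protein of macrophages, rose by 0.77 ± 0.18 in RVF+ and by 0.80 ± 0.19 in RVF hearts (adjusted p = 0.00349 and 0.00758). F13a1, which encodes a subunit of coagulation factor XIII, rose by 0.58 ± 0.16 in RVF+ hearts (adjusted p = 0.0117), and its RVF difference was 0.15 ± 0.17 (adjusted p = 0.621). Vsig4, a complement receptor of tissue macrophages, rose by 0.53 ± 0.18 in RVF+ hearts (adjusted p = 0.0385), was 0.32 ± 0.13 and short of the threshold without RVF+ 8, and differed by -0.079 ± 0.20 in RVF hearts (adjusted p = 0.835). It was a dim gene, at 2.85 to 3.66 in CON, and RVF+ 9, RVF+ 10 and RVF+ 12 fell within that range. Of 10 measured further genes of recruited monocytes and their progeny, 8 rose in RVF+ hearts and 7 in RVF hearts, or 8 in each without RVF+ 8, and 0 fell. Gpnmb, a glycoprotein of lipid-laden macrophages, rose by 2.39 ± 0.37 in RVF+ and by 1.75 ± 0.40 in RVF hearts (adjusted p = 1.39e-04 and 0.00518). Fn1 and Vcan, matrix proteins that fibroblasts also make, rose by 1.73 ± 0.15 and 1.19 ± 0.15 in RVF+ hearts and by 1.10 ± 0.16 and 0.91 ± 0.16 in RVF hearts. Ccr2, the chemokine receptor that defines recruited monocytes, did not pass in either group. Its differences were 0.37 ± 0.35 in RVF+ hearts (adjusted p = 0.481) and -0.021 ± 0.38 in RVF hearts (adjusted p = 0.979), and its value in RVF+ 8 was 9.73. Without RVF+ 8 the RVF+ difference of Ccr2 turned to -0.059 ± 0.25.

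Beyond C1q, 7 of 19 measured complement genes rose and 0 fell in RVF+ hearts, and 6 rose and 1 fell in RVF hearts. Without RVF+ 8, 8 rose in RVF+ hearts and 9 in RVF hearts, with 0 and 1 lower. The proteases that join C1q in the first complement complex were among them. C1r rose by 0.69 ± 0.069 in RVF+ and by 0.70 ± 0.074 in RVF hearts, and C1s by 0.75 ± 0.085 in RVF+ and by 0.81 ± 0.091 in RVF hearts, with adjusted p-values between 2.69e-06 and 1.09e-05. Serping1, the inhibitor of these proteases, rose by 0.76 ± 0.09 in RVF+ and by 0.85 ± 0.097 in RVF hearts. None of the 3 was moved by RVF+ 8 by more than 0.1, with RVF+ differences of 0.70, 0.79 and 0.84 without it. C3, the central component, rose by 1.43 ± 0.45 in RVF hearts (adjusted p = 0.0341), and its RVF+ difference was 0.78 ± 0.42 (adjusted p = 0.183), or 0.50 ± 0.41 without RVF+ 8. For C3 only RVF 14, at 7.23, lay above every CON array. The other RVF arrays fell within the CON range of 4.21 to 7.05, whose top was CON 4. Itgam, a chain of the complement receptor of myeloid cells, differed by 0.98 ± 0.38 in RVF+ hearts (adjusted p = 0.0639), and by 0.43 ± 0.16 without RVF+ 8, short of the threshold in both. Its RVF difference was 0.62 ± 0.41 (adjusted p = 0.343), which passed without RVF+ 8 (adjusted p = 0.00945).

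Of 13 measured Fc receptor and immune-receptor signalling genes, 12 rose in RVF+ hearts and 5 in RVF hearts, or 11 and 11 without RVF+ 8. Fcgr1a, the high-affinity receptor for immunoglobulin G, rose by 1.55 ± 0.30 in RVF+ and by 1.15 ± 0.32 in RVF hearts (adjusted p = 7.88e-04 and 0.0177). Btk, a kinase downstream of such receptors, rose by 1.21 ± 0.24 in RVF+ and by 0.78 ± 0.26 in RVF hearts (adjusted p = 0.00118 and 0.0465). Of 13 measured genes of phagocytosis and lysosomes, 9 rose in RVF+ and 6 in RVF hearts, or 8 in each without RVF+ 8. They included the protease gene Ctsl, which rose by 0.82 ± 0.075 in RVF+ and by 0.50 ± 0.08 in RVF hearts. Axl, a receptor for dying cells, rose by 0.60 ± 0.085 in RVF+ and by 0.65 ± 0.091 in RVF hearts. Among 11 other myeloid transcription factors, 7 rose and 1 fell in RVF+ hearts, and 3 rose and 1 fell in RVF hearts. Without RVF+ 8, 8 rose in RVF+ and 5 in RVF hearts, again with 1 lower in each. Runx1, a factor of blood cell development, rose by 1.26 ± 0.20 in RVF+ and by 1.10 ± 0.21 in RVF hearts, and Nr1h3, a sterol-sensing receptor, rose by 0.59 ± 0.085 in RVF+ and by 0.40 ± 0.091 in RVF hearts. Mitf, a factor of lysosomal genes and pigment cells, differed by -0.69 ± 0.12 in RVF+ and by -0.53 ± 0.13 in RVF hearts, and was the gene of the list that fell. Of 7 other colony stimulating factors and receptors, 1 rose in RVF+ hearts, Il34, and 0 were called in RVF hearts. Without RVF+ 8 there were 1 higher and 1 lower in RVF+ hearts and 0 in RVF hearts.

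Markers of other cell types that the tissue could hold were counted in the same fit. Of all genes, 14.1% were called higher and 13.6% lower in RVF+ hearts, and 8.86% higher and 8.29% lower in RVF hearts. Where only 1 marker of a short list was called, the count is not far from these shares and is no result about the list. Of 11 neutrophil markers 0 were called in either group, with summed intensities of 138 to 679 in RVF+, 160 to 294 in RVF and 130 to 252 in CON, the highest in RVF+ 10. Without RVF+ 8, 1 neutrophil marker was higher in RVF+ hearts and 0 were called in RVF hearts. Of 10 T cell markers 1, Il7r, rose in both groups, and the list summed to 178 to 499 in RVF+, 209 to 249 in RVF and 166 to 209 in CON, the highest in RVF+ 8. Without RVF+ 8, 1 T cell marker was higher and 1 lower in RVF+ hearts, and 3 were higher and 1 lower in RVF hearts. Of 5 measured B cell markers 1, Cd79b, rose in both groups. Of 5 natural killer markers 2, Klrd1 and Ncr1, fell in both groups. The B cell and natural killer counts were equal without RVF+ 8. Of 8 dendritic cell markers 3 rose in RVF+ hearts, Flt3, Clec9a and Ccr7, and 1, Ccr7, in RVF hearts, or 2 and 4 without RVF+ 8. Of 7 mast cell markers 0 were called in either group, and without RVF+ 8 there were 2 higher in RVF+ hearts and 1 in RVF hearts. No probe set of these lists is at 0 on this array, since normalised intensities keep a background level. Lymphatic endothelial markers matter because Lyve1 is one of their marks. Of 6 measured, 2 rose and 1 fell in RVF+ hearts and 1 rose and 1 fell in RVF hearts, or 2 and 1 in each without RVF+ 8. Their median difference was 0.42 in RVF+ and -0.041 in RVF hearts. Flt4 rose by 0.93 ± 0.12 in RVF+ and by 0.75 ± 0.12 in RVF hearts. Reln rose by 1.00 ± 0.21 in RVF+ hearts, and Prox1 differed by -1.03 ± 0.18 in RVF+ and by -0.60 ± 0.20 in RVF hearts and fell in both. Prox1 was lowest in RVF+ 8, at 6.29, which was also the array with the lowest cardiomyocyte markers. Which cells gave the Prox1 signal was not tested. Pdpn, Ccl21 and Mmrn1 did not pass in either group. Mmrn1 had 5.77, 4.80, 6.74 and 7.87 in RVF 13 to 16. RVF 16 was the highest and RVF 14 the lowest of the RVF arrays for both Mmrn1 and Ccl21, with 9.82 for Ccl21 in RVF 16. For Lyve1 RVF 16 was also the highest of the RVF arrays, but RVF 14, at 8.86, lay above RVF 13 and RVF 15. Of 5 red cell genes 3 rose in RVF+ hearts and 0 in RVF hearts, or 4 and 0 without RVF+ 8, with Hbb at 0.90 ± 0.22 in RVF+ and 0.33 ± 0.23 in RVF. Array by array, Hbb followed the groups only in part. RVF+ 8 to 11, at 11.76, 12.10, 12.44 and 11.91, lay above every CON array. RVF+ 12, at 10.95, fell within the CON range, whereas RVF 13, at 11.94, and RVF 15, at 11.51, lay above every CON array. All 9 measured proliferation genes rose in RVF+ hearts and 5 of 9 in RVF hearts, or 9 of 9 without RVF+ 8. Of 10 cardiomyocyte markers 1 rose and 5 fell in RVF+ hearts, and 1 rose and 0 fell in RVF hearts. Without RVF+ 8, 1 rose and 5 fell in RVF+ hearts, and 1 rose and 3 fell in RVF hearts. The part of these lists in the macrophage values was not tested.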

How the data were processed

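Right ventricular RNA from 16 samples was hybridised to 1 Affymetrix whole-transcript array each, from 500 ng of total RNA without reduction of ribosomal RNA, per the labels' protocols. Per the submitters' processing notes, the authors used RMA, which corrects background, equalises the arrays by quantiles and combines probes, to make the deposited intensity of each probe set. Neither software version nor array build is given in the sources used here. The deposited intensities were linear, from 2.202 to 10294, with array medians of 27.1 to 29.3, and were converted to log2. RMA shrinks differences between dim probe sets, and precision is limited by the number of arrays.

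Of 29214 probe sets, 18644 had exactly 1 gene symbol in the array annotation, 962 had several and 9608 were not listed. For the 879 genes with several such probe sets the one with the highest mean was taken, which left 17245 genes, with no filter on dim genes. Symbols were checked against RefSeq, with 0 updated. Group means were fitted to all 16 arrays with limma 3.58.1 in R 4.3.3 (lmFit and eBayes, 13 residual degrees of freedom), two-sided, with Benjamini-Hochberg adjustment over all genes and a threshold of 0.05. The labels give no batch or pairing, so the fit has no covariates. The script was tested on simulated data with known differences. The genes, the lists and the tests were chosen with earlier results of these data known, so their direction is no independent evidence. All 32 genes are named; of every other list, the genes with the smallest p in either comparison, with a few defining genes of other cell types, were eligible to be named. Alternatives were quantile normalization, median centring, a filter on dim genes, the mean of probe sets, fits to only the 2 groups compared, a trended and robust prior, array weights, and leaving out each array in turn. Promoter windows are from RefSeq, assembly GRCr8.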

Additional observations from a re-analysis of the deposited data

Results flagged for a closer look

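Within the RVF+ group, RVF+ 8 lay farther above the other 4 arrays than Dixon's 95% limit allows for 16 of the 31 genes. Its log2 value and that of the next highest RVF+ array are given for each. Among resident and recruited markers these were Siglec1 (7.69, next 5.86), Cd14 (9.46, next 7.78) and Tlr2 (6.13, next 4.55). Among the genes of macrophage identity they were Cd68 (9.54, next 6.98), Adgre1 (7.64, next 6.75), Csf1r (10.07, next 8.74), Spi1 (7.57, next 5.97) and Msr1 (8.48, next 6.19). Among the adaptors, pan-leukocyte genes and other receptors they were Tyrobp (10.59, next 9.25), Aif1 (7.42, next 5.98), Ptprc (9.21, next 7.47), Laptm5 (9.33, next 7.68), Ctss (10.27, next 9.07), Cd53 (10.28, next 8.54), Lcp1 (10.61, next 9.01) and Lilrb4 (9.67, next 6.90). The C1q chains, Lyve1 and Cd163 were not among them. Dixon's limit was not applied to the other genes of the array, so this count is not shown to be particular to the macrophage genes.

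In the CON group, CON 5 was the highest array for Mrc1 at 7.63, with the next at 7.28, and the lowest for Csf2rb at 5.45, with the next at 5.87. The limit was applied to 93 sets of a gene and a group, and chance passes it in about 1 in 20. The genes share their arrays, so these results are not independent of each other.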

How the results depend on the processing

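The direction of every one of the 31 genes was the same under all alternatives run in RVF+ against CON and in RVF against CON. The count of genes higher in RVF+ than in CON was 28 to 31 when single arrays were left out and 28 or 29 under the other alternatives. The count in RVF against CON depended on the estimate of the spread. It was 15 over all arrays, 29 with only the 2 groups compared, where 4466 of all genes were called, and 27 with array weights, where 4688 were called, against 1528 higher and 1429 lower genes over all arrays. Leaving out single arrays gave 8 to 28 of the 31 genes, lowest without RVF 14 or RVF 16 and highest without RVF+ 8, and 2063 to 4247 of all genes. In RVF+ against RVF, 0 of the 31 genes passed under any alternative, and 0 to 3 of all genes when single arrays were left out, with 3 without RVF+ 12.

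The sign of RVF+ minus RVF turned for genes that were raised in RVF+ 8. With array weights it was -0.0704 for Siglec1, -0.201 for Tlr2, -0.152 for Spi1, -0.029 for Tyrobp, -0.048 for Fcer1g, -0.144 for Aif1, -0.143 for Ptprc, -0.151 for Lcp1. When single arrays were left out, the difference ran from -0.162 to 0.435 for Siglec1, -0.252 to 0.281 for Tlr2, -0.107 to 0.664 for Cd68, -0.026 to 0.382 for Csf1r, -0.142 to 0.399 for Spi1; -0.071 to 0.402 for Tyrobp, -0.077 to 0.368 for Fcer1g, -0.199 to 0.200 for Aif1, -0.160 to 0.380 for Ptprc, -0.224 to 0.316 for Lcp1. The lowest value was without RVF+ 8 in each of these genes, and Fcer1g was also negative without RVF 13, at -0.0245. Median centring moved the median of all genes to -0.11 in RVF+ against CON and to -0.092 in RVF against CON. It gave 1757 higher and 3577 lower genes in RVF+ against CON, compared with 2423 and 2348 without centring, and 1084 higher and 2108 lower in RVF against CON. The macrophage genes called were then 29 in RVF+ and 14 in RVF hearts. Tlr2 and Siglec1 were too dim to be tested when the dimmer genes were removed. No paired analysis was possible because the labels give no pairing. The dim genes, such as Tlr2, are limited most by background signal. The causes of these changes were not tested, except that leaving out RVF+ 8 changes only the spread in RVF against CON.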
